A study of Camellia sinensis var. assamica with 4 samples.

Results

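CMT2 (CSA032127), CMT3 (CSA030966) and SUVH4 (CSA002812) are the tea genes that the study lists under its CMT3 step, which acts outside the CG context. It is not the only step there, since the study states that CMT2 and RNA-directed DNA methylation often complement each other. The 3 genes were measured as transcripts in young leaf. They were taken by their identifiers, as 3 of the 37 genes that the study lists for its DNA methylation pathway and of the 27554 genes in the expression table, a rule that uses no expression value, although earlier results of these data were known when it was set. The tissue was young leaf of the tea tree, Camellia sinensis var. assamica, without any treatment or second condition. RNA-seq was done in 2 replicates, and bisulphite sequencing of the same tissue in another 2 samples was not analysed here. The sample labels do not say what separates the RNA-seq replicates, and their protocol speaks of 3 libraries pooled for sequencing, so each SD given here is the spread between the 2 deposited columns and may be technical. The identifiers are paired with names only for the 37 pathway genes, none of which marks a leaf cell type, so the tissue could not be checked against its markers.

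In plants, cytosines are methylated in the CG, CHG and CHH contexts, where H is any base but G. From work in Arabidopsis, SUVH4, also called KRYPTONITE, is a histone methyltransferase that places dimethylation on lysine 9 of histone H3 and binds methylated DNA. CMT3 is a chromomethylase that reads this histone mark through its chromodomain and methylates CHG sites, which in turn recruit SUVH4, so both enzymes form a loop. CMT2 is the related chromomethylase that reads the same mark and methylates mostly CHH sites in the bodies of long transposons in heterochromatin.

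All levels are in FPKM, the number of fragments on a gene scaled by gene length and library size, as the authors computed it for each replicate. The division by length puts genes on a common scale. A comparison between genes still rests on the annotated lengths, which are not given, and on uniquely mapped reads only. The effect of either on the ratios and ranks was not tested. It measures mRNA and says nothing of the amount or activity of the enzyme. Over all listed genes, the sum of FPKM was 1070174 for replicate 1 and 1010900 for replicate 2, and the median was 4.47 and 4.49. The number of fragments behind each value is unknown. The most frequent ratio among 4647 genes with low values would put the depth of replicate 2 at 1.10 times that of replicate 1. This estimate comes from 203 of these genes and assumes that they have equally many fragments in both replicates.

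The histone methyltransferase gene was the most abundant transcript of the step and both chromomethylase genes were several times lower. For SUVH4, replicate 1 gave an FPKM of 11.6 and replicate 2 one of 10.9, a mean of 11.2 ± 0.458 (SD, n = 2). The FPKM of CMT3 was 4.15 in replicate 1, 3.48 in replicate 2 and 3.81 ± 0.471 on average (SD, n = 2). CMT2 was lowest, with 2.77 in the first and 2.19 in the second replicate and a mean FPKM of 2.48 ± 0.413 (SD, n = 2). The order SUVH4, CMT3, CMT2 held in each replicate, and none of the 3 ranges overlapped. The lowest SUVH4 value was over the highest CMT3 value, and the lowest CMT3 value was over the highest CMT2 value. All 3 genes reached an FPKM of 0.5, the upper limit of the study's lowest expression group, in both replicates, as did 78.3% of all listed genes.

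**Figure D1:**
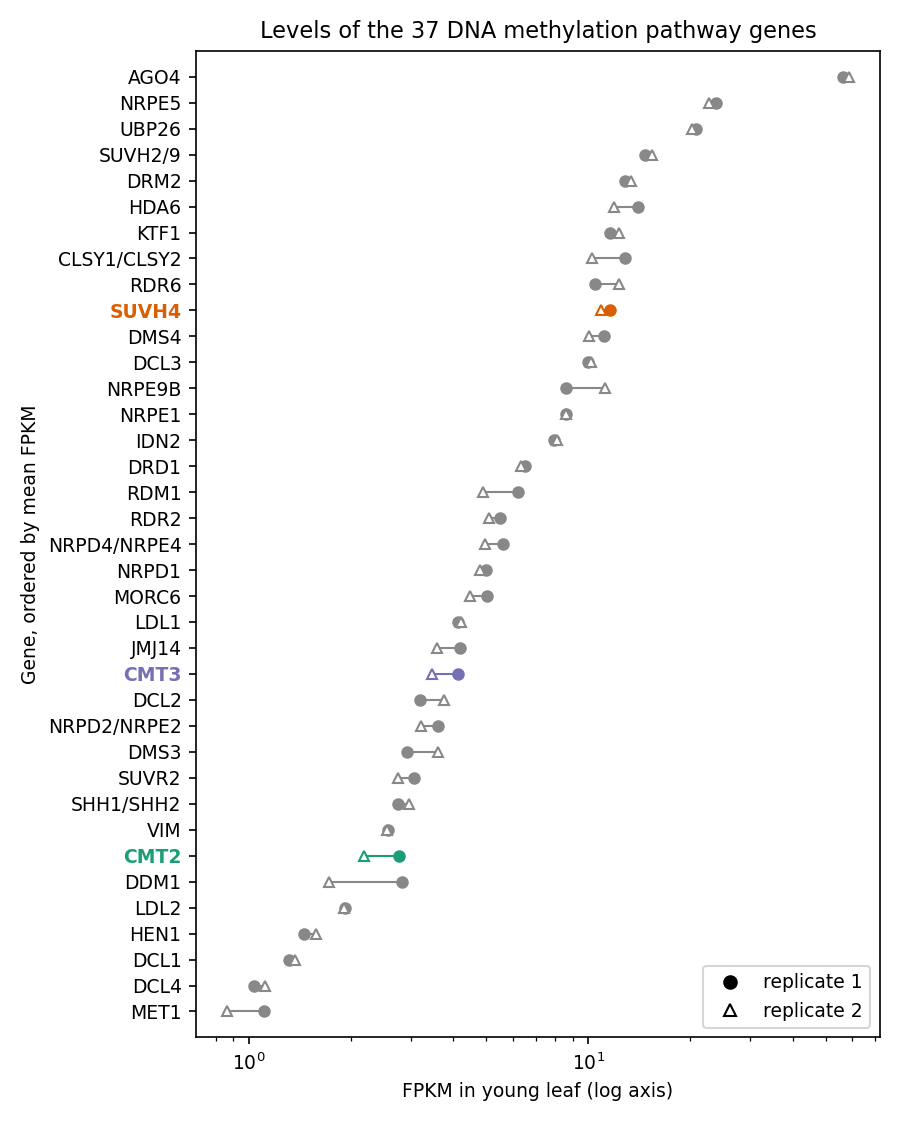
FPKM in young leaf (x axis, log scale) of the 37 DNA methylation pathway genes, ordered from the highest mean at the top, with a filled circle for replicate 1 and an open triangle for replicate 2. SUVH4 lies 10th with 11.6 and 10.9, CMT3 24th with 4.15 and 3.48, and CMT2 31st with 2.77 and 2.19.

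The chromomethylases were then set against SUVH4 within each replicate, a ratio that does not change with the scale of a library. CMT2 had 24.0% of the SUVH4 level in replicate 1 and 20.1% in replicate 2, a mean of 22.0% ± 2.78 (SD, n = 2). CMT3 had 35.9% of the SUVH4 level in replicate 1 and 31.9% in replicate 2, a mean of 33.9% ± 2.81 (SD, n = 2). The values of CMT2 lay under those of CMT3 in both replicates without overlap. Summed, CMT2 and CMT3 had 59.9% of the SUVH4 level in replicate 1 and 52.0% in replicate 2. Even both chromomethylase transcripts together thus stayed under that of SUVH4. The study's introduction also names SUVH5 and SUVH6 as acting with CMT3. Its gene list holds neither, so the ratios leave them out. On the log2 scale the ratio to SUVH4 was -2.06 and -2.32 for CMT2, with a mean of -2.19 ± 0.18. For CMT3 it was -1.48 and -1.65, with a mean of -1.56 ± 0.12 (SD, n = 2 each). Both ratios were lower in replicate 2, by 0.26 for CMT2 and 0.17 for CMT3, which is small beside the ratios themselves.

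CMT3 exceeded CMT2 by a factor that varied less than either level. In Arabidopsis CMT3 methylates CHG sites and CMT2 mostly CHH sites, and the activity of the tea genes was not measured. The ratio of CMT3 to CMT2 was 1.49 in replicate 1 and 1.59 in replicate 2, a mean of 1.54 ± 0.0667 (SD, n = 2). The SD of this ratio was 4.32% of its mean, while the SD was 12.4% of the mean for the level of CMT3 and 16.6% for that of CMT2. Both genes were lower in replicate 2, which by itself narrows the spread of their ratio. The ratio of CMT2 to MET1 had a smaller SD still, 0.841% of its mean. On the log2 scale CMT3 was 0.58 over CMT2 in replicate 1 and 0.67 in replicate 2, a change between the replicates of 0.09.

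**Figure D2:**
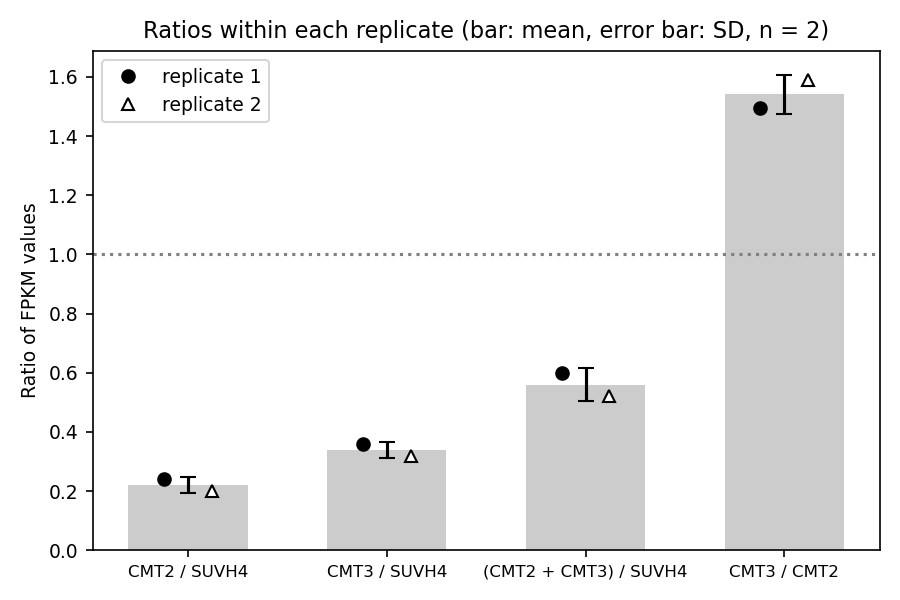
Ratios of FPKM values (y axis, no unit) formed within each replicate, with bars for the mean, error bars for the SD of 2 replicates, circles for replicate 1 and triangles for replicate 2; the dotted line marks a ratio of 1. The ratios to SUVH4 are 0.220 for CMT2, 0.339 for CMT3 and 0.559 for their sum, and CMT3 is 1.54 times CMT2.

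Among the 27554 listed genes, SUVH4 was well above the median level and both chromomethylases below it. The table lists no gene at 0 in both replicates, and if the 9396 identifier numbers without a row stood for genes at 0, CMT2 and CMT3 would also lie above the median, over 53.6% and 59.9% of genes. Ranked only against genes with a mean FPKM of 1 or more, CMT2 was over 17.1% and CMT3 over 28.3%. The share of genes with a lower mean FPKM was 71.9% for SUVH4, and it came to 72.7% within replicate 1 alone and 71.3% within replicate 2 alone (SD 0.967, n = 2). CMT3 was over 46.2% of genes, or 48.3% and 44.6% by the single replicates (SD 2.65, n = 2). CMT2 was over 37.8% of genes, or 40.2% and 36.2% by the single replicates (SD 2.83, n = 2). Counted from the highest mean FPKM, SUVH4 was gene 7748, CMT3 gene 14834 and CMT2 gene 17134 of 27554. In mean FPKM, 2299 genes lay between CMT2 and CMT3 and 7085 between CMT3 and SUVH4. SUVH4 was 2.58 times the median of the listed genes in replicate 1 and 2.43 times in replicate 2. CMT3 lay close under that median, at 0.927 and 0.775 times, and CMT2 further below, at 0.620 and 0.488 times.

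The study divided genes into 5 expression groups, the first under FPKM 0.5 and the others of equal size. This rule was applied here to the listed genes, with limits computed separately for the mean and for each replicate. SUVH4 fell into the fourth group in both replicates and by its mean. CMT3 fell into the third group in both replicates and by its mean. CMT2 lay near a border, since its mean of 2.48 was just under 2.55, the limit between the second and the third group by mean FPKM. It fell into the third group in replicate 1 and into the second in replicate 2. The difference between the replicates of CMT2 was thus large enough to move it by 1 group.

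**Figure D3:**
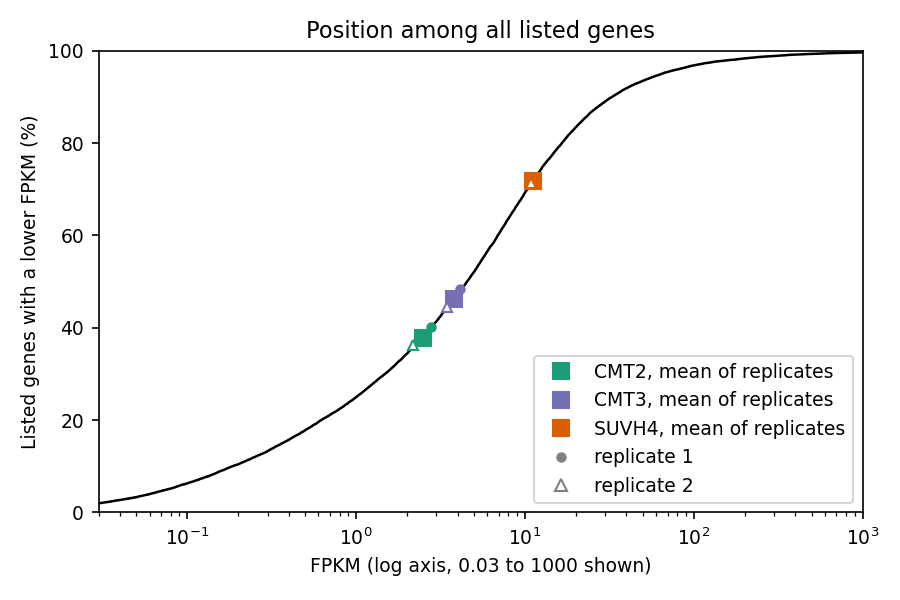
Share of the 27554 listed genes with a lower FPKM (y axis, %) against FPKM (x axis, log scale, shown from 0.03 to 1000), with the curve for the mean of both replicates, squares for the mean of each gene, circles for replicate 1 and triangles for replicate 2. SUVH4 sits at 71.9%, CMT3 at 46.2% and CMT2 at 37.8%.

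All 3 genes were lower in replicate 2 than in replicate 1, where 49.4% of all listed genes and 19 of the 34 other pathway genes were lower. The value in replicate 1 was 1.27 times that in replicate 2 for CMT2, 1.19 times for CMT3 and 1.06 times for SUVH4. On the log2(FPKM + 1) scale, replicate 2 minus replicate 1 was -0.24 for CMT2, -0.20 for CMT3 and -0.08 for SUVH4. None of the 3 genes and none of the 34 others differed by more than 0.5 on that scale, which 10.6% of all listed genes did. Both counts rest on the pseudocount of 1. With 0.1 the difference was over 0.5 for DDM1, at -0.69, and for 24.2% of listed genes (27.8% with 0.01), while CMT2, CMT3 and SUVH4 stayed under it. The median log2 ratio of replicate 2 to replicate 1 was 0.01 over the 19722 genes with an FPKM of at least 1 in both. Rises and falls cancel in this median, so it shows only that the replicates had little common shift. Regardless of sign, the median difference on the log2(FPKM + 1) scale was 0.14 over all listed genes. It was thus over that of SUVH4 and under those of CMT2 and CMT3. Of all listed genes, 29.7% differed more than CMT2, and a larger share differed more than CMT3. Rescaled to a sum of 1000000 in each replicate (TPM), the differences of CMT2 and CMT3 were -0.18 and -0.13, and that of SUVH4 was -0.000964. Other scalings left a difference for SUVH4. It was -0.03 with the highest gene left out of the sum and -0.09 with the median log2 ratio set to 0.

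The replicate spread of the 3 genes was set against that of other genes of like level. These were the genes with a mean FPKM within a factor of 1.5 of the gene. The SD of CMT2 was 16.6% of its mean, against a median of 12.8% over 3915 such genes, of which 38.3% differed more between the replicates than CMT2. For CMT3 the SD was 12.4% of the mean, against a median of 9.88% over 4704 genes near it, of which 41.2% differed more. SUVH4 had an SD of 4.08% of its mean, against a median of 6.50% over 5051 genes near it, of which 66.0% differed more. The difference between these 2 columns was thus slightly over the median of like genes for each chromomethylase, and slightly under it for SUVH4. With 1 difference for each gene, this does not rank how variable the genes are. In a replicate, an FPKM that another gene repeats exactly can come from few fragments on a short gene. No value of CMT2, CMT3 or SUVH4 was repeated, while 25.7% of all listed genes had a repeated value in at least 1 replicate. Among the genes of like level, the share was 26.6% for CMT2, 21.6% for CMT3 and 17.5% for SUVH4. The lack of a repeat in 3 genes therefore says little of their number of fragments.

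**Figure D4:**
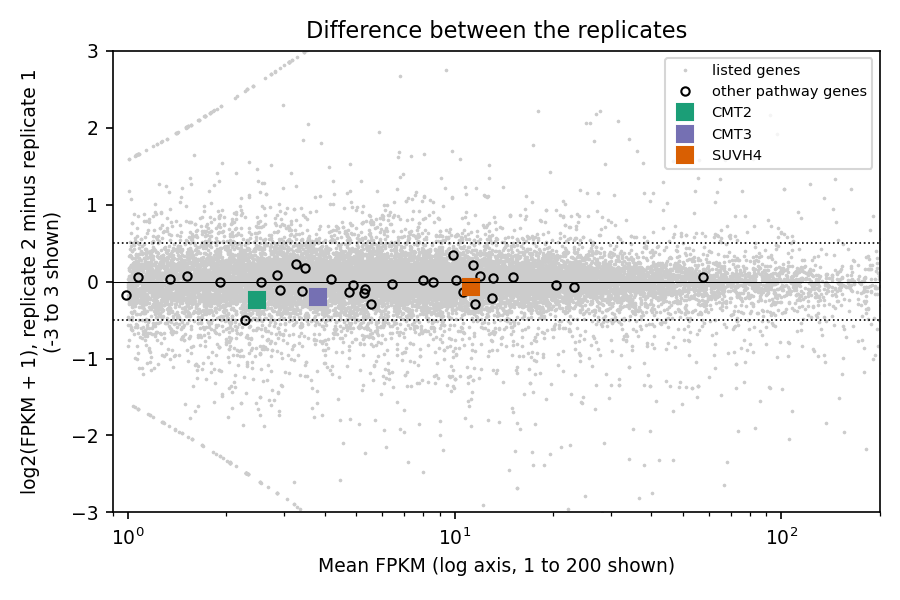
Replicate 2 minus replicate 1 in log2(FPKM + 1) (y axis, shown from -3 to 3) against mean FPKM (x axis, log scale, shown from 1 to 200), with grey dots for listed genes, open circles for other pathway genes and squares for CMT2, CMT3 and SUVH4; dotted lines mark a difference of 0.5. The squares lie at -0.24, -0.20 and -0.08, all within the dotted lines.

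The pathway list holds 4 DNA methyltransferase genes, and CMT2 and CMT3 took the middle places among them. MET1 (CSA018787) had the lowest level and DRM2 (CSA001531) the highest. In Arabidopsis, MET1 maintains CG methylation after replication, and DRM2 is the enzyme of RNA-directed DNA methylation. CMT2 was 2.50 times MET1 in replicate 1 and 2.53 times in replicate 2. CMT3 was 3.74 times MET1 in replicate 1 and 4.02 times in replicate 2. CMT2, CMT3 and MET1 were all lower in replicate 2, and the ratio of CMT2 to MET1 differed by only 0.02 between the replicates on the log2 scale. Against DRM2, CMT2 had 21.6% of its level in replicate 1 and 16.4% in replicate 2, and CMT3 had 32.3% and 26.1%. DRM2 itself was higher in replicate 2, with an FPKM of 13.3 against 12.8 in replicate 1, and these shares moved further between the replicates than those to SUVH4.

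Of the summed FPKM of the 4 methyltransferase genes, CMT2 made up 12.2% ± 1.60 and CMT3 18.7% ± 1.66 (SD, n = 2 each). Together both chromomethylases made up 33.1% in replicate 1 and 28.5% in replicate 2. DRM2 accounted for 64.3% ± 3.94 and MET1 for 4.84% ± 0.678 (SD, n = 2 each). The sum of CMT2 and CMT3 was 53.9% of DRM2 in replicate 1 and 42.5% in replicate 2. These are shares of summed FPKM, a measure of mRNA, and not of enzyme or of methylated sites.

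**Figure D5:**
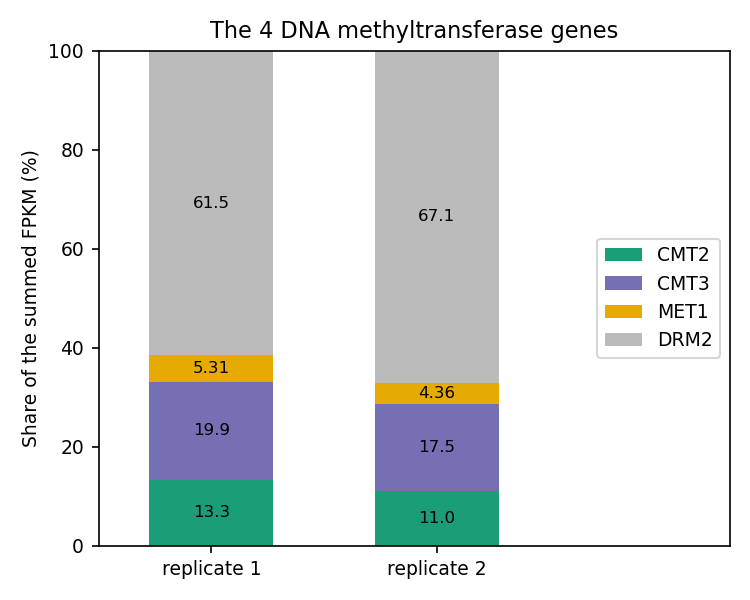
Share of each of the 4 DNA methyltransferase genes in their summed FPKM (y axis, %), 1 stacked bar for each replicate. CMT2 and CMT3 hold 13.3% and 19.9% in replicate 1 and 11.0% and 17.5% in replicate 2, and DRM2 holds most of the rest.

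The list holds 3 genes of the SET domain family to which SUVH4 belongs. SUVH2/9 (CSA033444), whose Arabidopsis proteins bind methylated DNA and recruit Pol V, was over SUVH4 in each replicate. SUVH4 had 78.8% of the SUVH2/9 level in replicate 1 and 70.9% in replicate 2. SUVR2 (CSA021101), a relative that acts in RNA-directed DNA methylation in Arabidopsis, was lower, and SUVH4 was 3.76 and 3.95 times its level. SUVH4 made up 38.5% ± 1.35 of the summed FPKM of the 3 genes (SD, n = 2), against 51.5% ± 2.05 for SUVH2/9 and 9.99% ± 0.699 for SUVR2.

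Other genes of the list act on histones or on chromatin, and those compared here are only a part of them. SUVH4 had 82.5% of the level of HDA6 (CSA007759), a histone deacetylase, in replicate 1 and 91.4% in replicate 2. It was 2.75 and 3.03 times JMJ14 (CSA018589), whose Arabidopsis homologue is a demethylase of lysine 4 on histone H3. It was also 2.80 and 2.58 times LDL1 (CSA034653) and 6.03 and 5.73 times LDL2 (CSA000647), homologues of lysine-specific demethylases. CMT2, with its FPKM of 2.77 and 2.19, was near the nucleosome remodeller DDM1 (CSA030020), with 2.83 and 1.72, which in Arabidopsis opens heterochromatin to DNA methyltransferases. CMT2 was 0.980 times DDM1 in replicate 1 and 1.27 times in replicate 2. CMT2 and DDM1 therefore changed order between the replicates and did not differ beyond their spread. CMT3 was 1.46 and 2.02 times DDM1 and SUVH4 was 4.08 and 6.34 times, and the SD of DDM1 itself was 34.5% of its mean.

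In the whole list of 37 genes, the 3 genes were spread widely. SUVH4 was 10th by its mean, 9th in replicate 1 and 10th in replicate 2. CMT3 was 24th, with 23rd and 26th in the replicates, and CMT2 was 31st, with 30th and 31st. The range of CMT2 overlapped those of 4 genes, DDM1, VIM, SHH1/SHH2 and SUVR2, while 27 genes lay wholly above it and 5 wholly below. The range of CMT3 overlapped those of 5 genes, DMS3, NRPD2/NRPE2, DCL2, JMJ14 and LDL1, with 21 genes wholly above and 10 wholly below. The range of SUVH4 overlapped those of 4 genes, NRPE9B, DMS4, RDR6 and CLSY1/CLSY2, with 7 wholly above and 25 wholly below. The median mean FPKM of the other 34 genes was 5.30, which lay between CMT3 and SUVH4. They reached from 0.988 for MET1 to 57.4 for AGO4 (CSA016856), the Argonaute that carries small RNAs in RNA-directed DNA methylation.

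For each of the 3 genes, the most similar genes of the list were found by the distance of log2(FPKM + 1) over the 2 replicates, which reflects level far more than pattern. JMJ14 was nearest to CMT3, with a distance of 0.0414 and an FPKM of 4.21 and 3.60, followed by NRPD2/NRPE2 (CSA013061), a subunit shared by Pol IV and Pol V, at 0.181. VIM (CSA002777), the homologue of the VIM proteins that bring MET1 to hemimethylated CG sites in Arabidopsis, was nearest to CMT2 at 0.175 with an FPKM of 2.57 and 2.55. DDM1 followed at 0.230. DMS4 (CSA023931), a factor of RNA-directed DNA methylation, was nearest to SUVH4 at 0.118 with an FPKM of 11.1 and 10.1. CLSY1/CLSY2 (CSA023919), chromatin remodellers that recruit Pol IV, followed at 0.159.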

How the data were processed

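RNA of young leaf was sequenced in 2 replicates. The authors mapped the reads with TopHat2 2.1.0 (named in the submitters' processing notes and the study's methods) to the tea genome, kept uniquely mapped alignments and quantified with Cufflinks; the deposited unit is FPKM per gene and replicate, with the authors' mean, which equals the mean of the replicates. Reads shared by near-identical genes were therefore not counted, and the effect on these genes was not tested. Version of Cufflinks and annotation are not given in the sources used here. No count model was used, and 0 per-sample columns were left out.

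Means, SDs, ratios within a replicate and ranks were computed with Python 3.11.15, numpy 2.4.6 and pandas 2.3.3, and functions were tested on simulated data. With 1 condition and 2 replicates nothing was tested: an exact two-sided permutation test of 2 against 2 values cannot go below p = 0.333. A pseudocount of 1 was used for log2 differences between replicates, none for ratios. The alternatives were other scalings, means, pseudocounts and gene sets, and each replicate alone. Named were the 3 genes, the other DNA methyltransferases, the SET domain genes, the histone demethylase and deacetylase genes, DDM1 and VIM. The highest and lowest gene of the list and the 2 list genes nearest to each of the 3 were named too. Genes whose range overlapped that of 1 of the 3 were also named, a choice made after their values were seen. Members and lists were chosen with earlier results of these data known. The RefSeq gene table (assembly ASM5576180v1) shared 0 identifiers with the expression table, so no coordinates or sequences are given. By symbol it held 1 gene for CMT3, 1 for SUVH4 and 0 for CMT2, which were not tied to the identifiers used here.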

Additional observations from a re-analysis of the deposited data

How the results depend on the processing

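The FPKM of each gene stayed within its replicate SD as TPM, as a geometric mean and with the median log2 ratio between the replicates set to 0. Scaling to a sum of 1000000 without the highest gene, which holds 21.3% of the summed mean FPKM, gave 3.03 for CMT2, 4.65 for CMT3 and 13.7 for SUVH4, and left their ratios as they were by construction. A pseudocount of 1 pulled the ratios towards 1, to 0.284 for CMT2 to SUVH4, 0.393 for CMT3 to SUVH4, 0.677 for their sum to SUVH4 and 1.38 for CMT3 to CMT2, whereas a pseudocount of 0.1 or the ratio of means moved none beyond its SD. The share of genes with a lower FPKM depended on the genes that were ranked. Ranked only against genes that averaged 0.5 or more, it was 24.4% for CMT2, 34.5% for CMT3 and 65.8% for SUVH4, and at a limit of 1 it was 17.1%, 28.3% and 62.5% in that order. Among genes above 0 in both replicates it was 33.6%, 42.5% and 69.9%. If the 9396 identifier numbers that have no row here were genes at 0, it would be 53.6%, 59.9% and 79.0%, which puts CMT2 and CMT3 above the median instead of below it. SUVH4 was lower in replicate 2 by 0.08 on the log2(FPKM + 1) scale, a difference that depended on the scaling. It was -0.000964 as TPM, -0.03 as TPM without the highest gene and -0.09 with the median log2 ratio set to 0. Lower pseudocounts raised the share of all genes with a replicate difference over 0.5, to 24.2% at 0.1 and 27.8% at 0.01.

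Leaving out 1 of 2 replicates moves a mean by less than its SD by construction and tests nothing. It gave an FPKM of 2.19 to 2.77 for CMT2, 3.48 to 4.15 for CMT3 and 10.9 to 11.6 for SUVH4. No paired analysis was possible because only 1 group has values, so the replicate numbers pair no samples across groups; the ratios between genes were already formed within each replicate. Without the number of fragments, the counting error of each value is unknown.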
